A study of Mus musculus with 36 samples.

Results

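The hemidesmosome and laminin-332 genes are 7 genes whose products fix basal keratinocytes to the basement membrane: Lama3, Lamb3 and Lama5 (laminin chains), Col17a1 and Cd151 (transmembrane proteins), and Plec and Dst (plakins of the inner plaque). They were taken by gene symbol from the counts of 55358 genes, each symbol matched 1 row, and all 7 were among the 15114 genes with enough reads to be tested. RNA was measured in 36 libraries of murine keratinocytes, 3 from each of 12 groups, which cross 3 genotypes with 24 h or 72 h of growth in low calcium medium (LCM) or high calcium medium (HCM, LCM with added CaCl2). The genotypes were Pkp4-wildtype (WT), Pkp4-knockout (PKP4-KO) and GFP-PKP4-tagged Pkp4-knockout (Rescue). WT and PKP4-KO cells had been isolated from the epidermis of different newborn Pkp4+/+ and Pkp4-/- pups of a C57BL/6J background, in which the mutant allele lacks exon 9 of Pkp4. Between WT and PKP4-KO, the loss of PKP4 thus cannot be told apart from other differences between the cell isolates. All cells were grown on collagen I. Rescue cells were PKP4-KO cells, and so carry the same deletion, that had been transduced with a lentiviral vector for human PKP4 tagged with EGFP and selected with puromycin as a stable line. No WT library carried a vector or EGFP, so the effect of transduction and selection cannot be told apart from that of PKP4 in Rescue. Nothing in the labels ties a library to its own pup or culture, so the p-values measure the spread between libraries, which may be technical.

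Hemidesmosomes join the keratin filaments of a basal keratinocyte to the matrix below it. Laminin-332, which holds the chains from Lama3 and Lamb3, is the main laminin that keratinocytes deposit. It is bound by the integrin of Itga6 and Itgb4, by collagen XVII (Col17a1) and by a complex with the tetraspanin CD151. Inside the cell, plectin (Plec) and the epithelial form of dystonin (Dst, BPAG1e) tie these receptors to keratin. Inherited loss of several of these components causes blistering of the skin. The alpha chain of Lama5 belongs to other laminins of the same basement membrane. PKP4 is an armadillo protein of cell-cell junctions, and calcium starts both junction assembly and differentiation in these cells.

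On the mouse genome (GRCm39), the members other than Lama3, described with its values, lie as follows: Lamb3 (ENSMUSG00000026639) at chr1:192890007-193027705 on the forward strand, Lama5 (ENSMUSG00000015647) at chr2:179818166-179867712 reverse, Col17a1 (ENSMUSG00000025064) at chr19:47634783-47680533 reverse, Cd151 (ENSMUSG00000025510) at chr7:141047256-141052572 forward, Plec (ENSMUSG00000022565) at chr15:76055174-76116774 reverse, and Dst (ENSMUSG00000026131) at chr1:33946918-34347742 forward. Counts were summed over whole genes, so the isoforms of no member were separated. Cd151 has 36 annotated transcripts, Dst and Plec 22 each, Lamb3 11 and Lama3 3. Of the exon bases of Cd151, 15.41% overlap Polr2l and 8.25% overlap Gm10575, both on the opposite strand. For the other members no overlap exceeded 3.26%. The strand setting of the counting is not given in the sources used here, so reads of such overlaps cannot be told apart.

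RefSeq start sites of GRCm38.p6 gave 8 promoter windows for 5 of the 7 members, each from 250 bases before to 50 after the start. Searched on both strands, TGANTCA (AP-1) was in 0 of the 8, GGGCGG (GC box) in 3 and CAGGTG (E-box of the SNAI and ZEB type) in 5. Over all 32851 windows of the same length, the shares were 7.81%, 35.7% and 20.2%. The windows of Lama5 and Dst are shown because the levels of these genes were alike across the 12 groups, and those of Lamb3 and Col17a1 for contrast. Dst and Lamb3 have 2 windows each, of which the first of Dst and the second of Lamb3 are shown. These hold more of the motifs than the windows not shown. Which start sites these cells use was not tested. Capitals mark GC boxes and E-boxes on either strand, and no match overlaps another.
Lama5, chr2:180225810-180226109, reverse strand: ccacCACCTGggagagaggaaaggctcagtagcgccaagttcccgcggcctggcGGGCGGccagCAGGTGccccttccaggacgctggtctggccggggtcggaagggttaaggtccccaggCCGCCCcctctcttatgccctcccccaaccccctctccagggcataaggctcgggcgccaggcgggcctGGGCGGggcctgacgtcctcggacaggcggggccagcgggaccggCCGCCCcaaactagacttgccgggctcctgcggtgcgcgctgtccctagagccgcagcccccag
Dst, chr1:34011345-34011644, forward strand: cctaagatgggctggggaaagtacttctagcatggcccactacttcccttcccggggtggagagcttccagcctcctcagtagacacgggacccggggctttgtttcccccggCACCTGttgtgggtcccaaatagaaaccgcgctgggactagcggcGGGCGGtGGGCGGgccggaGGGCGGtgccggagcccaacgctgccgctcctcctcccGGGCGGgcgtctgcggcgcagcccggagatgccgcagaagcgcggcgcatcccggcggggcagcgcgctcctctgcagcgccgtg
Lamb3, chr1:193301993-193302292, forward strand: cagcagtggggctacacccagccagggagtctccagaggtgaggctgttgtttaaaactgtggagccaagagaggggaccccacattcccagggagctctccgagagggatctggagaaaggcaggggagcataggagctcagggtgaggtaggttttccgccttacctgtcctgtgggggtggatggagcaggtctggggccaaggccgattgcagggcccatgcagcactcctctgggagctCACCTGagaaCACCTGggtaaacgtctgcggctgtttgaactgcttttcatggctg
Col17a1, chr19:47691993-47692292, reverse strand: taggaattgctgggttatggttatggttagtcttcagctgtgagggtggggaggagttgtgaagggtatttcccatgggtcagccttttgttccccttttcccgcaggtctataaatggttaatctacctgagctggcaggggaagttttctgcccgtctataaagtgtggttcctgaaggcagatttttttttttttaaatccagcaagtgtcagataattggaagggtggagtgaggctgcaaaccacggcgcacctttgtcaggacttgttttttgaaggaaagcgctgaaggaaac
The Lama5 window holds 4 GC boxes and 2 E-boxes with a GC content of 72.7%, and the Dst window 4 GC boxes and 1 E-box with 70.3%. The other Dst window holds 0 GC boxes and 1 E-box with a GC content of 46%, and the other Lamb3 window holds none of the 3 motifs. The Lamb3 window holds 2 E-boxes, and the Col17a1 window none of the 3 motifs. A match describes letters only.

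Total counts lay between 13602728 and 22467187 per library, with a median of 17353519.5. At the median, 3 counts equal 0.173 CPM (counts scaled to library size), and this limit covers counting error only. The trimmed mean (TMM) factors that scale the CPM values below were 0.481 to 0.546 in PKP4-KO in HCM at 72 h and 0.705 to 1.39 elsewhere. Without them, the median log2 fold change of all tested genes shifted from -0.07 to -0.83 in PKP4-KO against WT and from 0.20 to 1.37 in Rescue against PKP4-KO in HCM at 72 h. Changes there are thus relative to the TMM scale. Endogenous Pkp4 read 38.6 to 71.1 CPM in the WT groups, 7.27 to 11.3 in PKP4-KO and 7.08 to 9.47 in Rescue. The GFP_PKP4 sequence had 1902 to 15325 counts in Rescue libraries and 0 to 113 in the others. All 7 keratinocyte markers were present in every group, with a sum of 27387 to 27755 CPM in Rescue in HCM at 72 h and at least 36135 CPM elsewhere. The lists for fibroblasts, melanocytes, endothelial cells, leukocytes and Merkel cells each summed to at most 11.6 CPM in any library. In bulk RNA, fewer cells of a type and less RNA per cell cannot be told apart. In 6 of the 36 libraries the closest library belonged to another group of the same genotype: WT 72 h HCM replicate 3, PKP4-KO 24 h LCM replicate 1, PKP4-KO 72 h LCM replicate 2, PKP4-KO 24 h HCM replicate 3, Rescue 24 h LCM replicate 3 and Rescue 72 h LCM replicate 2. Calls that changed without these 6 libraries are given beside the results. The 6 were picked by likeness in these same data, which can narrow the spread within groups. An adjusted p without them may thus be too small and adds no support to a call.

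Per kilobase of gene model (RPKM), WT keratinocytes in LCM at 24 h held most Col17a1 (109 ± 8.74, mean ± SD, n = 3), followed by Cd151 (62.4 ± 9.32), Lamb3 (43.0 ± 5.61), Lama3 (17.6 ± 0.262), Plec (11.9 ± 0.461), Lama5 (6.10 ± 0.503) and Dst (5.70 ± 0.917). This order rests on the deposited gene lengths. With the merged exon length of the annotation, chosen after seeing the data, Cd151 (32.9 ± 4.92) and Lamb3 (34.5 ± 4.51) changed places, their ranges of 1 SD overlapping, and the order of the others stayed. Both lengths cover the whole gene, with 41619 and 45141 bases for Dst. A shorter isoform in use would have a higher level per length, and which isoforms these cells use was not tested. The place of Dst in this order is thus not settled. Across the 12 groups, PKP4-KO in HCM at 72 h had the lowest mean of 5 members, namely Lama3, Lamb3, Lama5, Col17a1 and Dst. The ratio of the highest to the lowest group mean was 9.82 for Lama3, 7.61 for Dst, 5.75 for Lama5, 5.41 for Lamb3, 3.81 for Col17a1, 2.69 for Plec and 2.35 for Cd151. Ranked by their means, most neighbouring groups overlapped in their libraries, in 6 of 11 neighbouring pairs for Lama3, 8 for Col17a1 and Plec, 9 for Dst and Lamb3 and 10 for Cd151 and Lama5.

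**Figure D1:**
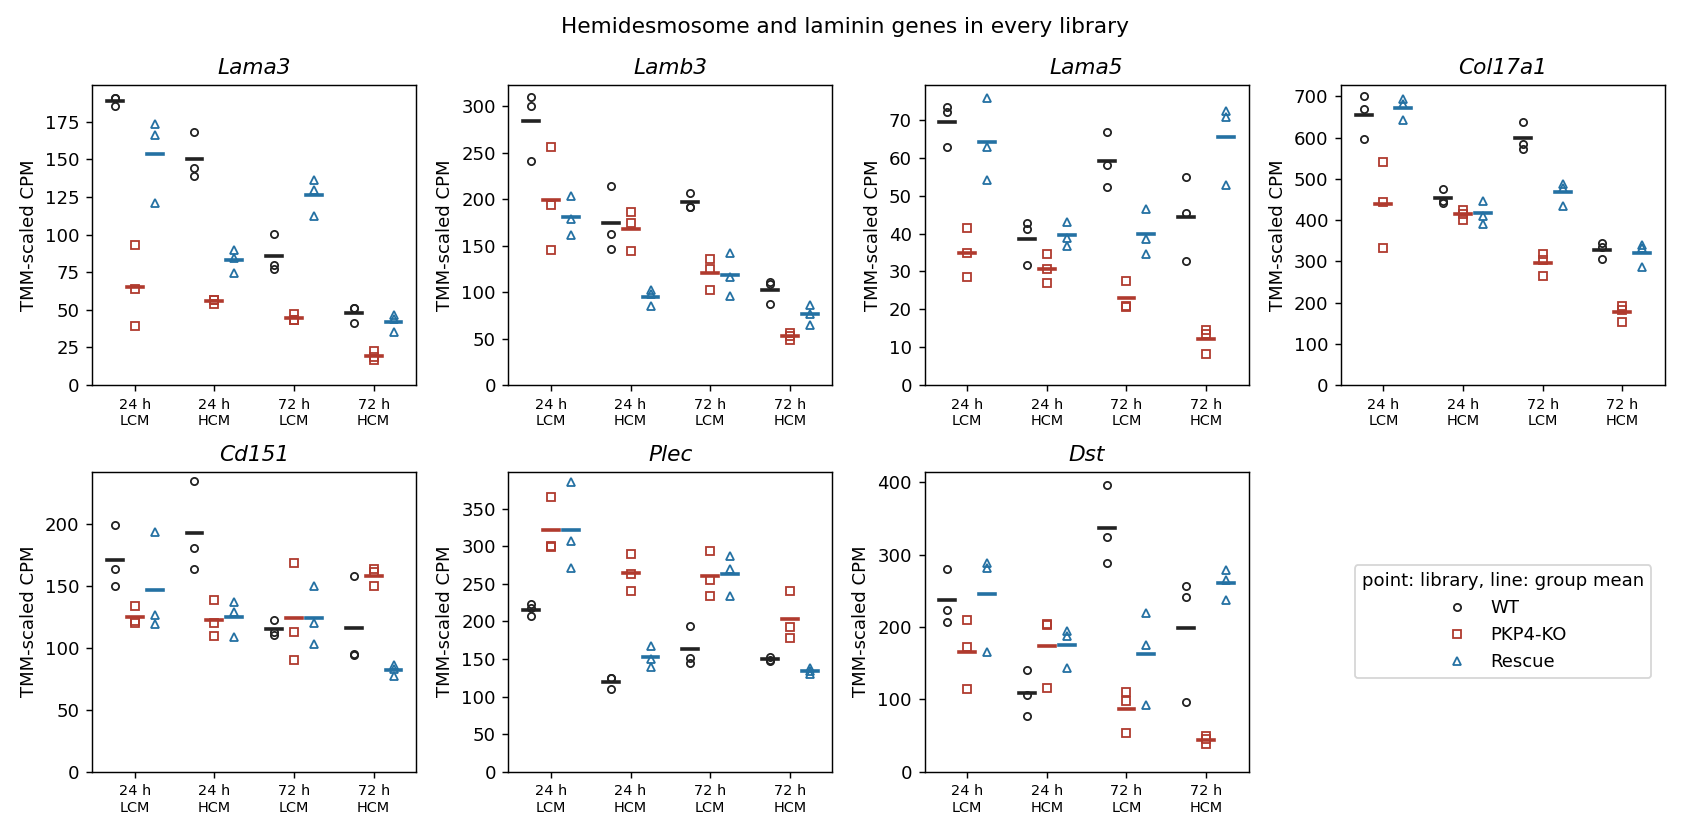
TMM-scaled CPM (y axis, linear, from 0) of the 7 genes in all 36 libraries by culture condition (x axis). Open symbols are libraries (black WT, red PKP4-KO, blue Rescue) and lines are group means of 3 libraries. Lama3 is lower in every PKP4-KO library than in any WT library of the same condition, while Plec is higher.

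The first question was how these genes differ between PKP4-KO and WT keratinocytes. At 72 h, Lama3, Lamb3, Lama5, Col17a1 and Dst fell below WT in PKP4-KO in both media and Plec was above it. At 24 h in HCM, only Lama3 and Cd151 were called lower and Plec higher, of the 7 members. Among the members, 1 higher and 2 lower in HCM at 24 h passed the test, where 42.8% of all tested genes were called, 1 higher and 5 lower in HCM at 72 h (51.8% of all genes), 1 higher and 4 lower in LCM at 24 h (40.2%) and 1 higher and 5 lower in LCM at 72 h (45.1%). Since calls were this common among all genes, 3 of 7 in HCM at 24 h is near the background. The median log2 fold change of the 7 was -0.13, -0.96, -0.52 and -0.94 in this order, beside 0.00, -0.07, 0.00 and 0.02 over all tested genes. Without TMM factors, 0 were higher and 5 lower in each of 72 h HCM, 24 h LCM and 72 h LCM.

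Rescue was compared with WT and with PKP4-KO, and these comparisons share libraries with the first, so their values are given side by side and not as separate evidence. Against WT, the members called were 0 higher and 3 lower in HCM at 24 h (23.2% of all genes), 1 higher and 0 lower in HCM at 72 h (36.2%), 1 higher and 1 lower in LCM at 24 h (24.8%) and 2 higher and 4 lower in LCM at 72 h (32.4%). Against PKP4-KO they were 1 higher and 2 lower in HCM at 24 h (40.8%), 5 higher and 2 lower in HCM at 72 h (66.7%), 3 higher and 0 lower in LCM at 24 h (33.7%) and 4 higher and 0 lower in LCM at 72 h (41.5%). Without TMM factors the split was 6 higher and 0 lower against PKP4-KO in HCM at 72 h, 0 higher and 2 lower in HCM at 24 h, and against WT it was 1 higher and 1 lower in LCM at 72 h and 0 higher and 1 lower in LCM at 24 h. The medians of the 7 were -0.12, -0.16, -0.11 and -0.36 against WT (all genes -0.04, 0.06, 0.02 and 0.03) and 0.01, 0.86, 0.56 and 0.66 against PKP4-KO (all genes -0.02, 0.20, 0 and 0.03), in the same order of conditions.

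**Figure D2:**
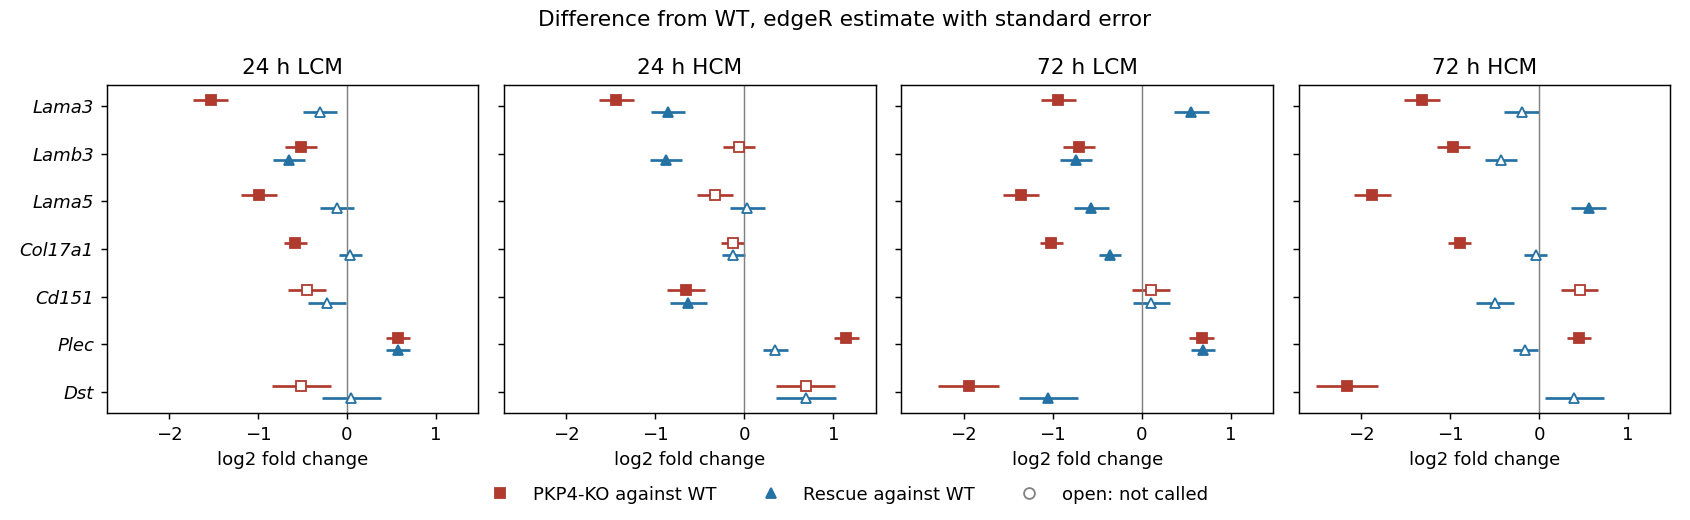
Log2 fold change (x axis) of each gene in PKP4-KO (red squares) and Rescue (blue triangles) against WT in the 4 culture conditions, with bars for the standard error of the edgeR estimate. Filled symbols passed an adjusted p of 0.05 and open ones did not. Lama3 in PKP4-KO lies between -1.53 and -0.94 in all 4 panels, and Dst in PKP4-KO lies at -2.16 (HCM) and -1.94 (LCM) at 72 h.

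Lama3 (ENSMUSG00000024421, chr18:12466876-12717747 of GRCm39, forward strand) encodes the alpha 3 chain of laminin-332, the chain that integrins bind. Lama3 stood at 186, 191 and 191 CPM in WT in LCM at 24 h, 39.0, 64.1 and 93.3 for PKP4-KO and 166, 173 and 121 for Rescue. With HCM for 24 h the values were 168, 139 and 144 for WT, 56.2, 56.4 and 54.1 for PKP4-KO and 74.6, 84.7 and 89.9 for Rescue. WT was highest and PKP4-KO lowest at both, and WT and PKP4-KO did not overlap. After 72 h, WT read 79.6, 101 and 76.9 in LCM and 51.3, 51.5 and 41.3 in HCM. PKP4-KO read 43.3, 43.4 and 47.5 in LCM and 22.7, 18.5 and 16.6 in HCM, and Rescue 136, 112 and 129.6 in LCM and 44.1, 46.3 and 35.5 in HCM. Again every PKP4-KO library lay below every WT and Rescue library of its condition. The log2 fold change of PKP4-KO against WT (± SE throughout) was -1.44 ± 0.20, adjusted p = 6.95e-07 in HCM at 24 h, -1.32 ± 0.20, adjusted p = 4.23e-06 in HCM at 72 h, -1.53 ± 0.20, adjusted p = 3.86e-07 in LCM at 24 h and -0.94 ± 0.20, adjusted p = 0.000289 in LCM at 72 h. These calls were lost under 0 of 13 alternatives with a test each. Rescue exceeded PKP4-KO by 0.58 ± 0.19, adjusted p = 0.0174 in HCM at 24 h, 1.12 ± 0.20, adjusted p = 2.35e-05 in HCM at 72 h, 1.23 ± 0.20, adjusted p = 1.17e-05 in LCM at 24 h and 1.5 ± 0.20, adjusted p = 5.21e-07 in LCM at 72 h. The first of these was not called without Rescue 24 h HCM replicate 3 (adjusted p = 0.0633). Against WT, Rescue was lower in HCM at 24 h (-0.86 ± 0.19, adjusted p = 0.00151) and higher in LCM at 72 h (0.56 ± 0.19, adjusted p = 0.0272), and did not pass the test in HCM at 72 h (-0.20) or 24 h LCM (-0.30). Without TMM factors neither was called (-0.74 with an adjusted p of 0.0629 and 0.53 with 0.177), nor was Rescue against PKP4-KO in HCM at 24 h (0.64, 0.0749). Left out singly, WT replicates 1 and 3 and Rescue replicates 1 and 3 of 72 h LCM ended the second call, with adjusted p of 0.0673 to 0.109.

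Lamb3 encodes the beta 3 chain, which is used in laminin-332. Lamb3 levels were 242, 301 and 310.0 CPM for WT, 145, 194 and 257 for PKP4-KO and 179, 203 and 161 for Rescue in LCM at 24 h. In HCM at 24 h they were 163, 147 and 215 for WT, 186, 174 and 144 for PKP4-KO and 85.5, 97.6 and 102 for Rescue. WT and PKP4-KO overlapped in both, and Rescue was the lowest genotype in HCM without overlap. WT at 72 h held 192, 207 and 191 in LCM and 109, 111 and 87.7 in HCM. PKP4-KO held 136, 102 and 125 in LCM and 53.0, 48.6 and 56.1 in HCM, and Rescue 116, 96.3 and 142 in LCM and 76.7, 86.1 and 65.1 in HCM. WT was above both other genotypes in each medium at 72 h. PKP4-KO against WT gave -0.96 ± 0.18, adjusted p = 7.71e-05 in HCM at 72 h, -0.71 ± 0.18, adjusted p = 0.00222 in LCM at 72 h and -0.52 ± 0.18, adjusted p = 0.0227 in LCM at 24 h. In HCM at 24 h it gave -0.06 ± 0.18 (adjusted p = 0.835). The call in LCM at 24 h ended when WT replicate 2 or 3 or PKP4-KO replicate 1 or 2 was left out singly, with adjusted p of 0.0611 to 0.172. With the 6 libraries left out together the adjusted p was 0.0684. Rescue against WT gave -0.88 ± 0.18, adjusted p = 0.000553 in HCM at 24 h, -0.65 ± 0.18, adjusted p = 0.0081 in LCM at 24 h and -0.74 ± 0.18, adjusted p = 0.00201 in LCM at 72 h. The value in HCM at 72 h was -0.43 ± 0.18, adjusted p = 0.0598, where WT replicate 3 left out gave an adjusted p of 0.0455 and the 6 libraries left out 0.0109. Lamb3 in Rescue was below PKP4-KO in HCM at 24 h (-0.82 ± 0.18, adjusted p = 0.000506) and above it in HCM at 72 h (0.53 ± 0.18, adjusted p = 0.0118). The latter was not called without Rescue replicate 2 (adjusted p = 0.0632). At 24 h and 72 h LCM, Rescue differed from PKP4-KO by -0.13 and -0.03, which did not pass the test.

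The balance of the Lama3 and Lamb3 mRNAs was followed as the ratio of RPKM values within each library, given as mean ± SD of 3 libraries and without a test. In WT, Lama3 to Lamb3 was 0.414 ± 0.0516 in LCM at 24 h, 0.544 ± 0.116 in HCM at 24 h, 0.267 ± 0.0283 in LCM at 72 h and 0.288 ± 0.00350 in HCM at 72 h. In PKP4-KO it stayed between 0.197 ± 0.0297 (24 h LCM) and 0.231 ± 0.0329 (72 h LCM). In Rescue it was 0.519 ± 0.0549, 0.538 ± 0.00479, 0.667 ± 0.0911 and 0.340 ± 0.0123, in the order given for WT. The PKP4-KO ratio was below the WT and Rescue ratios in every library at 24 h, overlapped with WT in LCM at 72 h, and was lower again in HCM at 72 h. Thus the alpha 3 mRNA was low relative to the beta 3 mRNA in PKP4-KO at 24 h.

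**Figure D3:**
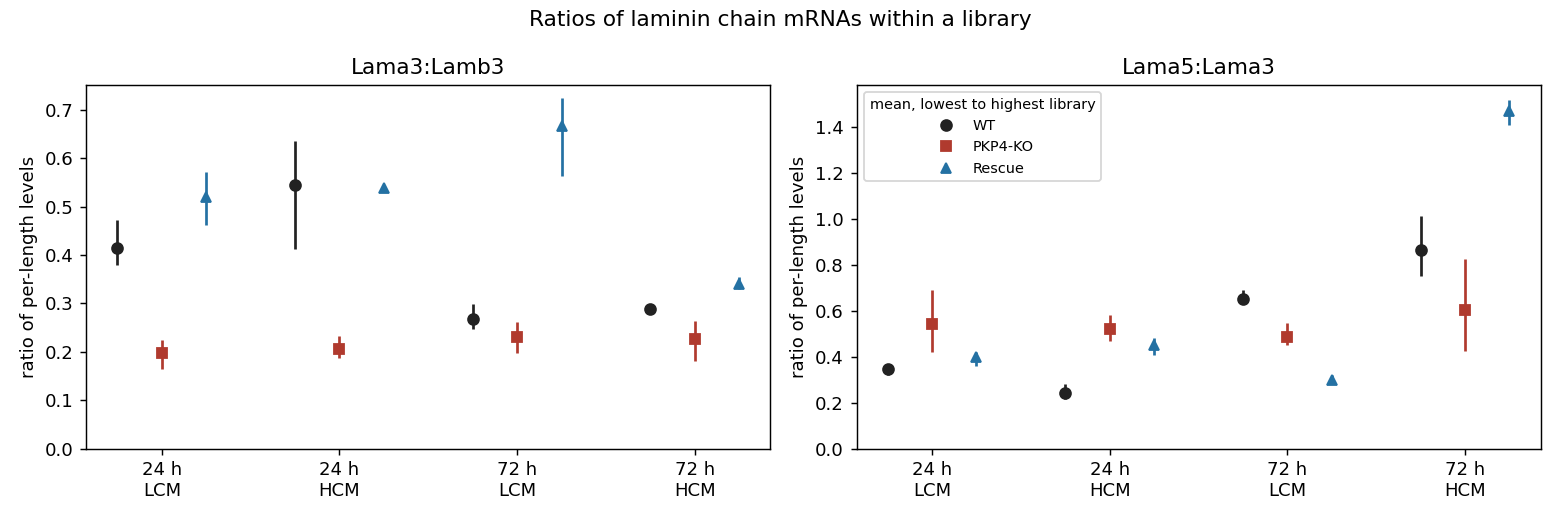
Ratio of RPKM values within a library (y axis, linear, from 0) for Lama3 to Lamb3 and Lama5 to Lama3 by culture condition (x axis). Symbols are means of 3 libraries and bars run from the lowest to the highest library. PKP4-KO (red) stays between 0.197 and 0.231 in the first panel, and Rescue in HCM at 72 h stands at 1.47 in the last.

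Lama5 encodes the alpha 5 chain of other epidermal laminins. Lama5 measured 62.9, 73.3 and 72.3 CPM for WT, 28.5, 34.9 and 41.6 for PKP4-KO and 62.9, 75.9 and 54.1 for Rescue in LCM at 24 h. At 24 h HCM it measured 41.3, 31.7 and 42.7 for WT, 34.5, 30.5 and 27.0 for PKP4-KO and 36.7, 43.0 and 38.8 for Rescue. PKP4-KO was lower than both others in LCM, while in HCM it overlapped with WT. WT at 72 h read 58.1, 66.9 and 52.2 in LCM and 55.0, 45.6 and 32.8 in HCM, and PKP4-KO 21.0, 20.7 and 27.4 in LCM and 13.5, 8.29 and 14.5 in HCM. Rescue read 46.4, 34.5 and 38.6 in LCM and 70.9, 72.4 and 52.9 in HCM. At 72 h the PKP4-KO libraries were the lowest in both media without overlap, and in HCM Rescue was the highest, overlapping with WT. PKP4-KO against WT gave -1.87 ± 0.21, adjusted p = 2.7e-08 in HCM at 72 h, -1.36 ± 0.20, adjusted p = 3.2e-06 in LCM at 72 h, -0.99 ± 0.20, adjusted p = 0.000211 in LCM at 24 h and -0.33 ± 0.20, adjusted p = 0.19 in HCM at 24 h. The difference between Rescue and PKP4-KO was 2.43 ± 0.21, adjusted p = 2.02e-10 in HCM at 72 h, a 5.39-fold higher level in Rescue. It was 0.88 ± 0.20, adjusted p = 0.000881 in LCM at 24 h and 0.79 ± 0.20, adjusted p = 0.00211 in LCM at 72 h. Rescue against WT was 0.56 ± 0.20, adjusted p = 0.0288 in HCM at 72 h. This was not called when WT replicate 2 or 3 or Rescue replicate 1 or 2 was left out (adjusted p of 0.0509 to 0.19) or without the 6 libraries (0.104). In LCM at 72 h it was -0.57 ± 0.20, adjusted p = 0.0271, not called without WT replicate 2 or Rescue replicate 2 or 3 (0.0759 to 0.119) or TMM factors (0.145). Per length, Lama5 to Lama3 was 1.47 ± 0.0554 in Rescue in HCM at 72 h and at most 0.865 ± 0.133 (WT 72 h HCM) in the other groups.

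The neighbours of Lama5 were lower in PKP4-KO too, by their median. Among the 84 tested genes within 5 Mb of Lama5, the median log2 fold change of PKP4-KO against WT was -1.15 in HCM at 24 h, -0.86 in HCM at 72 h, -1.21 in LCM at 24 h and -0.99 in LCM at 72 h. In Rescue against WT their medians were -0.52, -0.57, -0.57 and -0.52 in the same order, and in Rescue against PKP4-KO they lay between 0.04 and 0.31. These neighbours were thus lower than WT in both PKP4-KO and Rescue. Relative to them, Lama5 in PKP4-KO against WT differed by 0.82, -1.02, 0.22 and -0.36, so that it stood below them at 72 h and above them at 24 h. Plec had 150 tested neighbours with medians of 0.41, 0.37, 0.55 and 0.39, which left 0.74, 0.07, 0.02 and 0.28 for Plec. Lama3 had 38 neighbours with medians between -0.36 and -0.05, and Lamb3 38 with medians between 0.27 and 0.41. The part of the neighbourhood in these results was not tested.

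**Figure D4:**
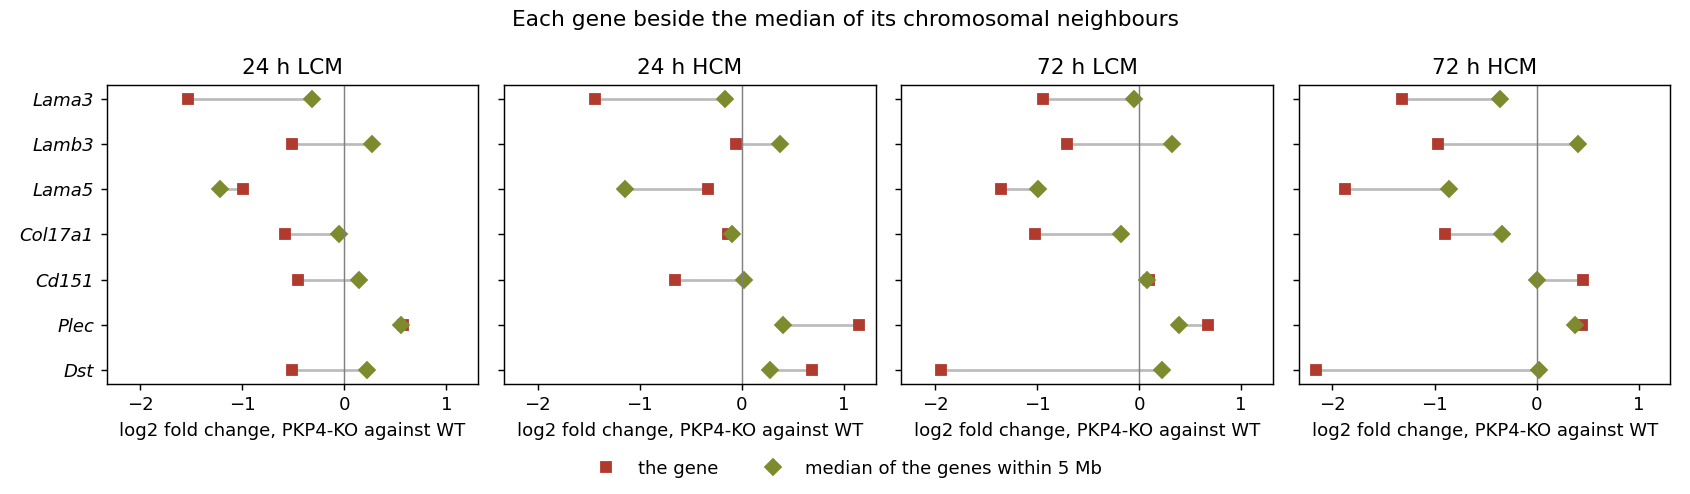
Log2 fold change of PKP4-KO against WT (x axis) of each gene (red squares) and the median of the tested genes within 5 Mb of it (green diamonds) in the 4 culture conditions. The medians around Lama5 lie between -1.21 and -0.86 and those around Plec between 0.37 and 0.55.

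Col17a1 encodes collagen XVII (BP180), which spans the membrane and binds laminin-332 with its ectodomain. Col17a1 reached 598, 668 and 700.4 CPM for WT, 333, 445 and 539.7 for PKP4-KO and 643, 693 and 680.4 for Rescue in LCM at 24 h. For HCM at 24 h the values were 446, 441 and 474 for WT, 425, 415 and 401 for PKP4-KO and 392, 411 and 447 for Rescue. PKP4-KO was lower than WT and Rescue in LCM, and in HCM it overlapped with Rescue and lay just below WT. Over 72 h, WT had 572, 638 and 585 in LCM and 334, 343 and 306 in HCM. PKP4-KO had 265, 303 and 318 in LCM and 182, 154 and 193 in HCM, and Rescue 488, 434 and 479 in LCM and 333, 339 and 286 in HCM. PKP4-KO was lowest in both media without overlap, and Rescue lay between the others in LCM and overlapped with WT in HCM. PKP4-KO against WT gave -1.02 ± 0.13, adjusted p = 2.83e-07 in LCM at 72 h, -0.89 ± 0.13, adjusted p = 1.99e-06 in HCM at 72 h, -0.58 ± 0.13, adjusted p = 0.000671 in LCM at 24 h and -0.13 ± 0.13, adjusted p = 0.441 in HCM at 24 h. Rescue was above PKP4-KO by 0.86 ± 0.13, adjusted p = 2.48e-06 in HCM at 72 h, 0.66 ± 0.13, adjusted p = 0.000145 in LCM at 72 h and 0.61 ± 0.13, adjusted p = 0.000401 in LCM at 24 h. They differed by 0.01 in HCM at 24 h. Against WT, Rescue passed the test only in LCM at 72 h, of the 4 conditions (-0.36 ± 0.13, adjusted p = 0.0331). This call ended when WT replicate 2 or 3 or Rescue replicate 2 or 3 was left out singly (adjusted p of 0.0579 to 0.12) and without TMM factors (0.179).

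Cd151 encodes a tetraspanin that associates with laminin-binding integrins. Cd151 amounted to 164, 234 and 181 CPM for WT, 109, 120.1 and 139 for PKP4-KO and 129, 108 and 137 for Rescue in HCM at 24 h. At 72 h HCM there were 95.0, 93.8 and 158 for WT, 162, 149.9 and 163 for PKP4-KO and 83.1, 86.1 and 77.0 for Rescue. WT was highest at 24 h, and at 72 h Rescue was lowest without overlap while 1 WT library fell among those of PKP4-KO. In LCM the group means ± SD (n = 3) were 171 ± 25.6, 125 ± 7.69 and 147 ± 41.0 at 24 h and 115 ± 6.36, 124 ± 40.3 and 124 ± 23.9 at 72 h, in the same order of genotypes. PKP4-KO against WT was called in HCM at 24 h (-0.65 ± 0.21, adjusted p = 0.0132), a call that ended without WT replicate 2 (adjusted p = 0.0879) or PKP4-KO replicate 1 (0.0614). At 72 h HCM it was 0.45 ± 0.21, adjusted p = 0.0736, and 0.75 with an adjusted p of 0.00525 without WT replicate 3 or 0.76 (7.91e-05) without the 6 libraries. At 24 h LCM it was -0.45 ± 0.21, adjusted p = 0.09, and with the 6 libraries left out -0.53 with an adjusted p of 0.00456. Without TMM factors it was -0.68 (adjusted p = 0.000573). Rescue was below WT in HCM at 24 h (-0.63 ± 0.21, adjusted p = 0.0299), not called without WT replicate 2 or Rescue replicate 1 or 2 (adjusted p of 0.0627 to 0.166). Rescue against PKP4-KO was -0.95 ± 0.21, adjusted p = 0.000349 in HCM at 72 h, but 0.23 without TMM factors (median of all genes 1.37). Rescue against WT in HCM at 72 h was -0.49 ± 0.21, adjusted p = 0.0667. The adjusted p was 0.0408 and 0.0361 without WT replicate 1 or 2. In LCM at 24 h it was -0.22, or -0.49 (adjusted p = 0.0117) without the 6 libraries.

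Plec encodes plectin, the plakin that links the beta 4 integrin to keratin. Plec reads came to 110.5, 124 and 124 CPM for WT, 290.1, 241 and 264 for PKP4-KO and 139, 167 and 151 for Rescue in HCM at 24 h. With 72 h of HCM they came to 149, 147 and 152 for WT, 239.9, 178 and 193 for PKP4-KO and 134, 139 and 129.6 for Rescue. PKP4-KO was highest at both times without overlap, and Rescue lay above WT at 24 h and below it at 72 h. In LCM, WT had 207, 217 and 223 at 24 h and 145, 194 and 151 at 72 h. PKP4-KO had 299, 301 and 365 at 24 h and 255, 294 and 234 at 72 h, and Rescue 308, 386 and 270.5 at 24 h and 269.7, 287 and 234 at 72 h. In LCM both PKP4-KO and Rescue were above WT, and they overlapped with each other. PKP4-KO against WT gave 1.15 ± 0.14, adjusted p = 8.62e-08 in HCM at 24 h, 0.67 ± 0.14, adjusted p = 0.000238 in LCM at 72 h, 0.58 ± 0.14, adjusted p = 0.00134 in LCM at 24 h and 0.45 ± 0.14, adjusted p = 0.00827 in HCM at 72 h. The last was not called without PKP4-KO replicate 1 (adjusted p = 0.0801), and without TMM factors it was -0.32 beside a median of -0.83 for all genes. The values in LCM at 72 h and 24 h were then 0.26 and 0.35 and not called. Rescue was below PKP4-KO in HCM, with -0.80 ± 0.14, adjusted p = 2.65e-05 at 24 h and -0.60 ± 0.14, adjusted p = 0.000431 at 72 h. Without TMM factors the value at 72 h was called the other way (0.57, adjusted p = 0.00639), beside a median of 1.37 for all genes. In LCM, Rescue differed from PKP4-KO by 0.00 and 0.01 at 24 h and 72 h and exceeded WT by 0.57 ± 0.14, adjusted p = 0.00245 and 0.69 ± 0.14, adjusted p = 0.000257. The first was not called without TMM factors (adjusted p = 0.0858). Against WT in HCM, Rescue gave 0.35 ± 0.14, adjusted p = 0.0673 at 24 h and -0.16 ± 0.14, adjusted p = 0.38 at 72 h.

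Dst encodes dystonin, whose epithelial form BPAG1e sits in the inner plaque. Dst had 141, 77.4 and 106 CPM for WT, 204, 203 and 116 for PKP4-KO and 143, 187 and 195 for Rescue in HCM at 24 h. At 72 h HCM the values became 241, 257 and 96.5 for WT, 50.05, 37.8 and 45.0 for PKP4-KO and 238, 279 and 265 for Rescue. All PKP4-KO libraries were below all others in HCM at 72 h, and in HCM at 24 h WT and PKP4-KO overlapped. In LCM, WT held 280.2, 207 and 224 at 24 h and 325, 397 and 289 at 72 h. PKP4-KO held 115, 173 and 209.9 at 24 h and 111, 54.1 and 97.7 at 72 h, and Rescue 289, 282 and 165 at 24 h and 219.9, 92.9 and 175 at 72 h. The genotypes overlapped in LCM at 24 h, and in LCM at 72 h WT was highest without overlap while Rescue and PKP4-KO overlapped. PKP4-KO against WT gave -2.16 ± 0.35, adjusted p = 8.9e-06 in HCM at 72 h, a level of 0.223 of WT. It gave -1.94 ± 0.34, adjusted p = 3.85e-05 in LCM at 72 h and -0.51 ± 0.33, adjusted p = 0.223 in LCM at 24 h. At 24 h HCM the estimate had the other sign (0.69 ± 0.33, adjusted p = 0.0985), and passed the test without PKP4-KO replicate 3 (0.91, adjusted p = 0.0422) and without the 6 libraries (0.88, adjusted p = 0.000581). Rescue exceeded PKP4-KO by 2.56 ± 0.35, adjusted p = 5.92e-07 in HCM at 72 h and by 0.89 ± 0.33, adjusted p = 0.0327 in LCM at 72 h. The latter was not called without PKP4-KO replicate 2 or Rescue replicate 1 or 3 (adjusted p of 0.0805 to 0.205). In LCM at 24 h the difference was 0.56 ± 0.33, adjusted p = 0.209, called without the 6 libraries (0.59, adjusted p = 0.038). Rescue was below WT in LCM at 72 h (-1.05 ± 0.33, adjusted p = 0.016), not called without WT replicate 2 or Rescue replicate 2 (adjusted p of 0.0668 and 0.106), or without TMM factors (0.0804). At 24 h HCM, Rescue against WT was 0.69 ± 0.33, adjusted p = 0.144, and 0.68 with an adjusted p of 0.00463 without the 6 libraries. Within a library, the RPKM of Plec was 10.6 ± 0.615 times that of Dst in PKP4-KO in HCM at 72 h, 2.12 ± 1.31 times in WT and 1.19 ± 0.0958 times in Rescue (mean ± SD of 3 libraries). The size of these ratios depends on the whole-gene lengths, so only their differences between groups are read.

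Next, the PKP4-KO effect, which here means the difference of PKP4-KO from WT, was itself compared between times and media. Between 72 h and 24 h of HCM it differed in 6 of 7 members (1 higher and 5 lower), where 26.6% of all tested genes were called. The difference of the log2 fold changes was -2.85 ± 0.48, adjusted p = 4.72e-05 for Dst, -1.54 ± 0.29, adjusted p = 0.000162 for Lama5, -0.91 ± 0.26, adjusted p = 0.00876 for Lamb3, -0.76 ± 0.18, adjusted p = 0.00236 for Col17a1, -0.70 ± 0.19, adjusted p = 0.00809 for Plec and 1.11 ± 0.30, adjusted p = 0.00645 for Cd151. Only Lama3, of the 7, did not pass this test (0.12 ± 0.28, adjusted p = 0.79). At 24 h, Lama5, Lamb3, Col17a1 and Dst had not passed the test against WT, and the estimate for Dst was above WT. At 72 h all of them were below WT, and Plec was less above WT than at 24 h, relative to the TMM scale. For Cd151 the estimate without TMM factors was 0.32 and not called, so that the split was then 0 higher and 5 lower.

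In the other 3 comparisons of this kind, 0 members were called by edgeR. Between HCM and LCM at 24 h (4.02% of all genes called), 4 members had an unadjusted p under 0.05 (Col17a1, Dst, Plec and Lama5) and DESeq2 called 0. Between HCM and LCM at 72 h (5.74%), 0 had an unadjusted p under 0.05 and DESeq2 called 0. Between 72 h and 24 h in LCM (5.25%), 3 had an unadjusted p under 0.05 (Col17a1, Dst and Lama3) and DESeq2 called 1, Dst (-1.39, adjusted p = 0.0391). Single libraries decided some of these values. Without PKP4-KO 24 h LCM replicate 1, the time difference in LCM was -0.60 for Col17a1 (adjusted p = 0.0249) and -1.64 for Dst (0.0426). Without PKP4-KO 24 h LCM replicate 3 it was 0.94 for Lama3 (0.0255), and the medium difference at 24 h was 0.62 for Col17a1 (0.0421). With the 6 libraries left out, the medium difference was 1.22 for Dst at 24 h (0.0101) and 0.96 for Cd151 at 72 h (0.00224), and the time difference in LCM was -1.37 for Dst (0.00267) and -0.61 for Col17a1 (0.0302).

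Several of these mRNAs were lower in HCM than in LCM within a genotype. HCM against LCM called 0 higher and 5 lower of the 7 in WT at 24 h (14.2% of all genes) and 0 higher and 3 lower at 72 h (21.4%). In PKP4-KO it called 0 at 24 h (2.83%), with 0 members at an unadjusted p under 0.05 and 0 called by DESeq2, and 0 higher and 6 lower at 72 h (32.6%). In Rescue it called 0 higher and 5 lower at 24 h (12%) and 1 higher and 5 lower at 72 h (24.9%). The medians of the 7 were -0.70 (WT), -0.19 (PKP4-KO) and -0.70 (Rescue) at 24 h and -0.76, -0.93 and -0.60 at 72 h, beside medians of all genes between -0.08 and 0.02.

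By gene, the differences called at 24 h in WT were -1.13 ± 0.34, adjusted p = 0.0208 for Dst, -0.85 ± 0.14, adjusted p = 5.16e-05 for Plec, -0.85 ± 0.20, adjusted p = 0.00316 for Lama5, -0.70 ± 0.18, adjusted p = 0.0072 for Lamb3 and -0.53 ± 0.13, adjusted p = 0.00458 for Col17a1. The call of Dst ended without LCM replicate 1 or HCM replicate 2 or 3 (adjusted p of 0.0613 to 0.121) and that of Lamb3 without HCM replicate 2 (0.0589). In WT at 72 h, Lama3 fell (log2 fold change -0.83 ± 0.20, adjusted p = 0.00234), as did Lamb3 (-0.94 ± 0.18, adjusted p = 0.000296) and Col17a1 (-0.87 ± 0.13, adjusted p = 1.03e-05). These 3 genes were also lower in HCM in the other genotypes at 72 h. Lama3 gave -1.22 ± 0.20, adjusted p = 3.35e-05 in PKP4-KO and -1.59 ± 0.20, adjusted p = 7.06e-07 in Rescue, Lamb3 -1.20 ± 0.18, adjusted p = 1.15e-05 and -0.64 ± 0.18, adjusted p = 0.00984, and Col17a1 -0.74 ± 0.13, adjusted p = 6.38e-05 and -0.55 ± 0.13, adjusted p = 0.00219. The call of Lamb3 in Rescue ended without LCM replicate 3 (0.0784) or HCM replicate 3 (0.0628). Without TMM factors, Lamb3 (0.181) and Col17a1 (0.16) were not called in Rescue. Lama5 in turn was lower in HCM in PKP4-KO (-0.93 ± 0.21, adjusted p = 0.00106) and higher in Rescue (0.71 ± 0.20, adjusted p = 0.00839), and the difference between these effects passed the test (-1.64, adjusted p = 1e-04). Dst was likewise -0.98 ± 0.34, adjusted p = 0.0263 in PKP4-KO and 0.68 ± 0.33, adjusted p = 0.137 in Rescue, with a called difference between them (-1.66, adjusted p = 0.00924). The value in PKP4-KO lost its call without LCM replicate 1 or 3 or HCM replicate 2 or 3 (0.0603 to 0.119). At 24 h in Rescue, HCM against LCM was -1.08 ± 0.14, adjusted p = 2.41e-06 for Plec, -0.93 ± 0.18, adjusted p = 0.000584 for Lamb3, -0.89 ± 0.19, adjusted p = 0.00207 for Lama3, -0.69 ± 0.13, adjusted p = 0.000383 for Col17a1 and -0.70 ± 0.20, adjusted p = 0.0163 for Lama5. The last was not called without LCM replicate 2 or HCM replicate 1 or 3 (0.0552 to 0.109) or TMM factors (0.127). Dst there was -0.49, and -0.70 (adjusted p = 0.0149) without the 6 libraries. At 72 h, Plec was -0.97 ± 0.14, adjusted p = 5.61e-06 in Rescue and -0.36 ± 0.14, adjusted p = 0.0478 in PKP4-KO. The latter was lost with the replicate number as a block (0.0536), without LCM replicate 1 or 2 or HCM replicate 2 or 3 (0.074 to 0.205) and without the 6 libraries (0.156). It was also lost with DESeq2 (0.155), no filter (0.135), at least 10 counts in every library (0.0876) and only the groups compared (0.185). Cd151 was called only in Rescue at 72 h, of the 6 calcium comparisons (-0.60 ± 0.21, adjusted p = 0.037). That call ended without LCM replicate 2 or 3 or any of the 3 HCM libraries (0.0623 to 0.196). In PKP4-KO at 72 h it was 0.35, or 0.64 (adjusted p = 0.0238) without LCM replicate 2 and 0.65 (adjusted p = 0.000702) without the 6 libraries.

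**Figure D5:**
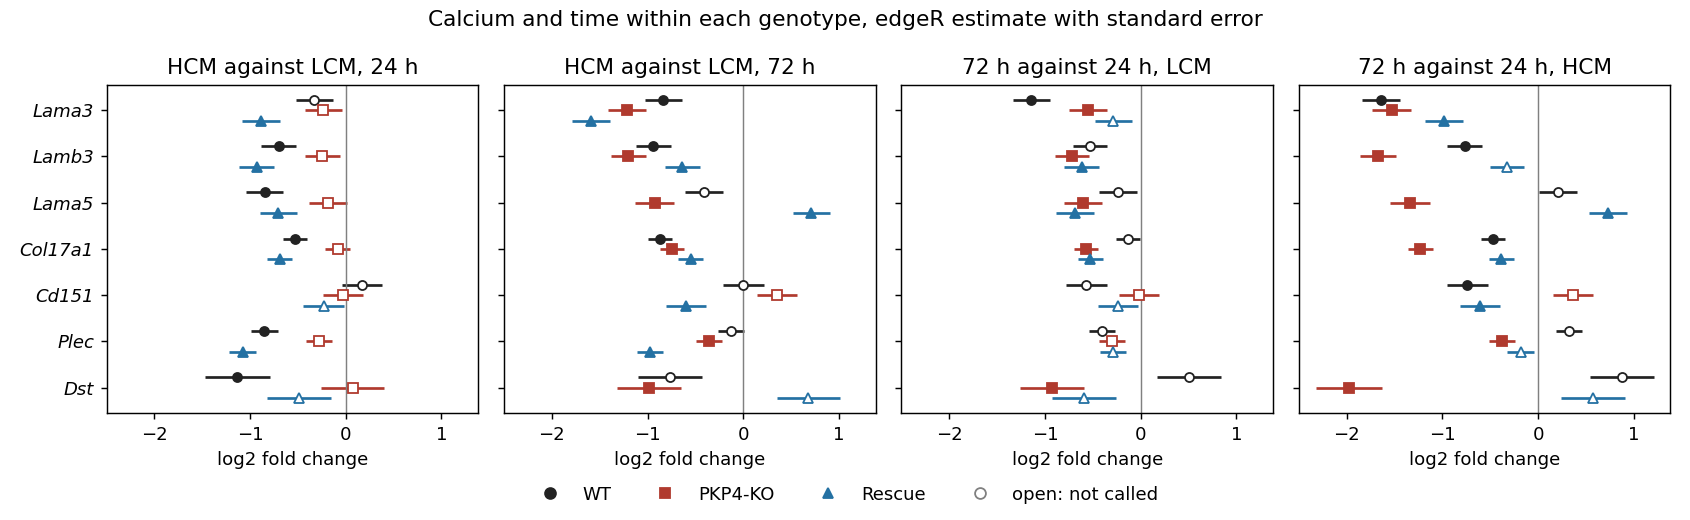
Log2 fold change (x axis) of each gene for HCM against LCM at each time and for 72 h against 24 h in each medium, in WT (black circles), PKP4-KO (red squares) and Rescue (blue triangles), with bars for the standard error. Filled symbols passed an adjusted p of 0.05. All PKP4-KO symbols in the 24 h calcium panel are open, and in the last panel Dst and Lama5 of PKP4-KO lie at -1.98 and -1.34 while those of Rescue lie at 0.58 and 0.73.

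Time in culture was compared within genotype and medium. Between 24 h and 72 h, the members called were 0 higher and 4 lower in WT HCM (17.8% of all genes), 0 higher and 1 lower in WT LCM (9.96%), 0 higher and 6 lower in PKP4-KO HCM (55.8%), 0 higher and 5 lower in PKP4-KO LCM (26.1%), 1 higher and 3 lower in Rescue HCM (24.3%) and 0 higher and 3 lower in Rescue LCM (9.81%). Without TMM factors, Rescue HCM had 0 higher and 2 lower. The medians of the 7 were -0.47, -0.40, -1.34, -0.57, -0.32 and -0.53 in this order, beside -0.03, -0.02, -0.09, -0.02, 0.01 and -0.03 over all genes. Lama3 was lower at 72 h in 5 of the 6, with -1.65 ± 0.20, adjusted p = 8.21e-07 in WT HCM, -1.53 ± 0.20, adjusted p = 4.12e-07 in PKP4-KO HCM, -1.14 ± 0.20, adjusted p = 0.000224 in WT LCM, -0.99 ± 0.20, adjusted p = 0.000385 in Rescue HCM and -0.55 ± 0.19, adjusted p = 0.036 in PKP4-KO LCM. The last was lost without 24 h replicate 2 or 3 or any of the 3 libraries of 72 h (adjusted p of 0.0524 to 0.507). In all, 8 of 13 alternatives ended this call. In PKP4-KO HCM, the log2 fold changes were -1.98 ± 0.35, adjusted p = 2.47e-05 for Dst, -1.68 ± 0.19, adjusted p = 1.87e-08 for Lamb3, -1.34 ± 0.21, adjusted p = 4.97e-06 for Lama5, -1.23 ± 0.13, adjusted p = 9.07e-09 for Col17a1 and -0.38 ± 0.14, adjusted p = 0.0219 for Plec. That of Plec was lost without 24 h replicate 1 or 72 h replicate 2 or 3 (0.0719 to 0.116). It was also lost with DESeq2 (0.138), no filter (0.0607), at least 10 counts in every library (0.069) and only the groups compared (0.0937). Cd151 was 0.37 ± 0.21, adjusted p = 0.14 in the same comparison. Without TMM factors it was called lower (-0.69, adjusted p = 0.000166), beside a median of -1.16 for all genes.

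Between 24 h and 72 h of HCM, 3 members moved in opposite directions in PKP4-KO and Rescue, by their estimates on the TMM scale. Lama5 was higher at 72 h than at 24 h in Rescue HCM (0.73 ± 0.20, adjusted p = 0.00693), Dst gave 0.58 ± 0.33, adjusted p = 0.228 (0.58, adjusted p = 0.0125, without the 6 libraries) and Cd151 -0.60 ± 0.21, adjusted p = 0.0356. The time effects in PKP4-KO minus those in Rescue were -2.07 for Lama5 (adjusted p = 1.55e-06), -2.55 for Dst (9.05e-05) and 0.97 for Cd151 (0.00909). Without TMM factors, Cd151 was called lower at 72 h in PKP4-KO (-0.69, adjusted p = 0.000166) and so moved the same way as in Rescue. These differences of time effects were not computed without TMM factors. The Cd151 value in Rescue lost its call without 24 h replicate 1 or 3 or any library of 72 h (0.0697 to 0.118). Col17a1 in Rescue HCM was -0.38 ± 0.13, adjusted p = 0.0287, lost without 24 h replicate 2 or 3 or 72 h replicate 1 or 3 (0.0501 to 0.132). Without TMM factors neither Col17a1 (0.287) nor Lama5 (0.77, adjusted p = 0.0611) was called in Rescue HCM. In WT HCM, Lamb3 was -0.77 ± 0.18, adjusted p = 0.00322, Cd151 -0.74 ± 0.21, adjusted p = 0.0144 and Col17a1 -0.47 ± 0.13, adjusted p = 0.0108. The call of Cd151 ended without 24 h replicate 2 or 72 h replicate 1 or 2 (0.0731 to 0.0827) and that of Col17a1 without 72 h replicate 3 (0.0575). Dst in WT HCM was 0.87 ± 0.33, adjusted p = 0.069, or 1.20 (adjusted p = 0.0132) without 72 h replicate 3.

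In LCM, PKP4-KO was lower at 72 h for Lamb3 (-0.72 ± 0.18, adjusted p = 0.00335), Col17a1 (-0.57 ± 0.13, adjusted p = 0.00129), Lama5 (-0.60 ± 0.20, adjusted p = 0.025) and Dst (-0.92 ± 0.33, adjusted p = 0.0407). Lamb3 was not called without 24 h replicate 3 (0.0614), Lama5 without 24 h replicate 2 or 3 or 72 h replicate 1 or 2 (0.056 to 0.154), and Dst without 24 h replicate 2 or 3 or 72 h replicate 2 or 3 (0.058 to 0.199). Rescue was lower at 72 h for Col17a1 (-0.53 ± 0.13, adjusted p = 0.00614), Lama5 (-0.69 ± 0.20, adjusted p = 0.0215) and Lamb3 (-0.62 ± 0.18, adjusted p = 0.0243). Lama5 was not called without 24 h replicate 2 or 72 h replicate 2 or 3 (0.0743 to 0.138) and Lamb3 without 24 h replicate 1 or 2 or 72 h replicate 1 or 2 (0.0565 to 0.147). Without TMM factors, Col17a1 (0.0579), Lama5 (0.0995) and Lamb3 (0.0975) were not called in Rescue LCM. In WT LCM, Plec was -0.40 ± 0.14, adjusted p = 0.063, called without 72 h replicate 2 (-0.54, adjusted p = 0.0213). Without the 6 libraries, Cd151 (-0.56, adjusted p = 0.00276), Lamb3 (-0.53, 0.0101), Plec (-0.40, 0.0379) and Dst (0.51, 0.0495) were also called in WT LCM, as were Dst in WT HCM (1.18, 0.000112), Cd151 in PKP4-KO HCM (0.49, 0.00446) and Plec in PKP4-KO LCM (-0.43, 0.0449). Without TMM factors, Plec and Cd151 were called lower in WT LCM (-0.61, 0.035 and -0.78, 0.000935) and in PKP4-KO LCM (-0.70, 0.00434 and -0.41, 0.0337).

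The related genes of the adhesion system were counted in PKP4-KO against WT in the order 24 h HCM, 72 h HCM, 24 h LCM and 72 h LCM, where 42.8%, 51.8%, 40.2% and 45.1% of all tested genes were called. Several counts below are near these shares, among them 2 of 4 laminin receptors, and nothing is read from them. Of the partner integrins Itga6 and Itgb4, which form the laminin receptor of the hemidesmosome, 0, 1, 1 and 1 were lower and 0 higher, with medians of -0.18, -1.11, -0.91 and -0.85. Itga6 was -1.87 ± 0.32, adjusted p = 1.95e-05 in HCM at 72 h, -1.78 ± 0.31, adjusted p = 3.74e-05 in LCM at 72 h and -1.47 ± 0.31, adjusted p = 0.000372 in LCM at 24 h, with -0.44 ± 0.30, adjusted p = 0.261 in HCM at 24 h. Itgb4, its partner chain, lay between -0.36 and 0.08 and was called in none of the 4 conditions. Of the 4 other laminin receptors (Itga3, Itgb1, Dag1 and Bcam), 2 were lower in each condition and 0 higher, with medians of -0.29, -0.66, -0.42 and -0.29. Dag1, which encodes dystroglycan, was lower in all 4, from -0.56 ± 0.18 in HCM at 24 h (adjusted p = 0.0132) to -1.01 ± 0.18, adjusted p = 5.65e-05 in LCM at 72 h.

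Lamb1, a chain of other laminins, fell in all 4 conditions, with -2.27, -3.48, -1.88 and -2.09. Among the 14 other basement membrane genes, 10 were tested, with 5, 7, 5 and 5 lower and 3, 0, 0 and 0 higher, and medians of -0.12, -1.55, -0.87 and -1.35 as fitted and -0.12, -1.24, -0.87 and -1.34 with genes under 3 counts at their bound. The largest mean changes in this list were those of Col4a2 and Col4a1, which encode collagen IV and were near 0 in PKP4-KO, so that no fold is given. Col4a2 had group means of 19.9 to 36.8 CPM in WT and 0.0863 to 0.252 in PKP4-KO, with 226 to 800 and 0 to 9 counts per library. Col4a1 had 6.76 to 14.6 CPM in WT and 0.0802 to 0.233 in PKP4-KO, with 77 to 329 and 0 to 7 counts per library. Col7a1, which encodes the collagen of anchoring fibrils and was chosen after its values were seen, was lower in all 4, with -2.01 ± 0.23, adjusted p = 4.22e-08, -2.79 ± 0.27, adjusted p = 1.35e-09, -2.21 ± 0.23, adjusted p = 1.18e-08 and -2.30 ± 0.24, adjusted p = 6.71e-09. In Rescue against PKP4-KO, Col7a1 was 1.36, 1.26, 1.52 and 0.54. The last did not pass the test. Of the 10 tested genes of this list, 4, 4, 4 and 5 were lower in Rescue against WT and 1, 2, 0 and 1 higher. Their medians as fitted were 0.07, -1.65, -0.67 and -1.54. Of all genes, 23.2%, 36.2%, 24.8% and 32.4% were called there.

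Of the 5 proteases that process laminin-332 or collagen XVII, 5, 5, 3 and 5 were lower and 0 higher, with medians of -1.10, -1.06, -0.75 and -1.07. Adam9 and Adam10 encode sheddases of collagen XVII. Adam9 was -2.92 ± 0.41, adjusted p = 1.36e-06 in HCM at 72 h and Adam10 -0.92 ± 0.24, adjusted p = 0.00187. The 5 other plakins had 3, 1, 3 and 2 lower and 0, 1, 0 and 0 higher, with medians of -1.06, -0.51, -0.82 and -0.57. The envelope plakins Ppl and Evpl were -2.17 ± 0.28, adjusted p = 1.92e-07 and -2.09 ± 0.26, adjusted p = 1.15e-07 in HCM at 24 h, and Ppl was lower in all 4 conditions. The 4 other tetraspanins had 3, 0, 1 and 1 lower and 0, 1, 0 and 0 higher, with medians of -0.81, -0.06, -0.02 and -0.19. Cd81 was -0.92 ± 0.19, adjusted p = 0.000282 in HCM at 24 h. Of the 3 basal keratins, to which the plaque connects, 2, 1, 2 and 2 were higher and 0 lower, with medians of 0.60, 0.15, 0.79 and 0.54. Krt15 was higher by 3.96, 3.09, 6.18 and 5.07, and Krt5 by 0.60 ± 0.18, adjusted p = 0.00763 in HCM at 24 h. Krt14 lay between -0.10 and 0.10 and was not called in any of the 4. In Rescue against WT in HCM at 72 h, where the summed keratinocyte markers were lowest, Krt14 was -1.30 ± 0.15, adjusted p = 1.44e-07 and Krt5 -0.64 ± 0.18, adjusted p = 0.00661. Their part in the values of the members there was not tested.

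Finally, the genes whose group means most resembled those of each member were found by Pearson's r of log2 CPM over the 12 group means, among 9071 protein-coding genes with at least 5 CPM. The 12 points share libraries, scaling and culture conditions, so r describes likeness only. Among the 3 genes closest to Lama3 were Akt1 (r = 0.956) and Fip1l1 (0.954). The genes closest to Dst were Ggta1 (0.935), Lama5 (0.931) and Wdr35 (0.927), and those closest to Lama5 were Bbx (0.977), Arhgap21 (0.974) and Sestd1 (0.972). Col17a1 was most like Hps6 (0.965), Nup214 (0.963) and Sugp2 (0.954), and Lamb3 most like Pole (0.963), Sae1 (0.954) and Prr11 (0.947). For Plec these were Kifc5b (0.94), Lrwd1 (0.936) and Trp53 (0.935), and for Cd151 Pisd (0.825), Hnrnpdl (0.797) and Alg3 (0.786). Among the members, Col17a1 and Lama3 had r = 0.907 and Col17a1 and Lamb3 r = 0.861, while Plec had r between -0.167 and 0.306 with the other 6.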

How the data were processed

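RNA of 36 keratinocyte libraries was measured by poly(A), strand-specific sequencing. According to the study's methods and the processing notes, the authors ran HISAT2 2.1.0 against mm39 extended by GFP-PKP4, dropped secondary alignments using SAMtools 1.10 and deposited raw featureCounts 2.0.0 counts per gene. The strand setting is not given in the sources used here, and counts over whole genes hide isoform differences. Groups came from the labels, where titles with HD were placed at 72 h, those with LD at 24 h and those with GFP in Rescue. Counts were filtered with filterByExpr, scaled by TMM and tested with edgeR 4.0.16 (R 4.3.3, quasi-likelihood, one model of 12 group means, 24 residual degrees of freedom) at a Benjamini-Hochberg adjusted p of 0.05 over 15114 genes. CPM and RPKM values use TMM-scaled library sizes. Members, lists and named genes were chosen with earlier results of these data known. Named were all members and, from each list, at most 2 genes with the largest mean change. Itgb4, Krt14 and Col7a1 were named outside this rule.

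Simulated data for PKP4-KO against WT at 24 h HCM held 15114 genes, and a change was given to only 200. Genes given a log2 change of 1 were recovered at 52% and those given 2 at 80%, with 5 false calls of 137. In the measured libraries, 42.8% of tested genes were called in this comparison, a far larger share than was changed in the simulation. The adjusted p depends on that share, so these rates cannot be carried over to the results above. Alternatives were no TMM factors, DESeq2 1.42.0, no filter, at least 10 counts in every library, a replicate block, only the groups compared, each library left out, subtraction of the median of neighbours within 5 Mb and, added after seeing the data, 6 libraries left out, a block within 3 comparisons and merged exon lengths. Replicate numbers came from the labels. They correlated above 0.1 in every pair in 3 of 24 comparisons (Rescue against PKP4-KO at 24 h HCM and 72 h LCM, HCM against LCM in WT at 24 h), where the block changed no call. A gene of the related lists and the results that need it are not reported here.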

Additional observations from a re-analysis of the deposited data

Results flagged for a closer look

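With 3 libraries per group, no group was large enough to look for single outlying libraries. The following differences between effects passed the test of the difference itself (edgeR, adjusted p), and they share libraries with each other. The PKP4-KO effect at 72 h minus that at 24 h in HCM was -2.85 for Dst, -1.54 for Lama5, -0.91 for Lamb3, -0.76 for Col17a1, -0.70 for Plec and 1.11 for Cd151. Without TMM factors the value for Cd151 was 0.32 and not called.

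The other differences were found by looking for members whose effects had opposite signs in comparisons that differ in 1 factor. Only pairs where the libraries of the groups did not overlap in either comparison were kept. There were 17 such pairs, of which 13 passed the test. They were thus chosen after their values were seen, and this choice favours pairs that pass, so the share that passed carries no weight. For Lamb3, Rescue against PKP4-KO was -0.82 at 24 h HCM and 0.53 at 72 h HCM, a difference of -1.35 (adjusted p = 0.000103). Plec in Rescue against WT was -0.16 at 72 h HCM and 0.69 at 72 h LCM, a difference of -0.84 (adjusted p = 0.00341). The time effect on Plec in WT was 0.32 in HCM and -0.40 in LCM, a difference of 0.72 (adjusted p = 0.0276).

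Lama5 and Dst account for most of the remaining pairs. For HCM against LCM at 72 h, PKP4-KO minus Rescue was -1.64 for Lama5 (adjusted p = 1e-04) and -1.66 for Dst (0.00924), and Rescue minus WT was 1.45 for Dst (0.037). In Rescue, HCM against LCM at 24 h minus 72 h was -1.42 for Lama5 (0.000782). For 72 h against 24 h in HCM, PKP4-KO minus Rescue was -2.07 for Lama5 (1.55e-06), -2.55 for Dst (9.05e-05) and 0.97 for Cd151 (0.00909). The opposite signs for Cd151 hold on the TMM scale only, since its effect in PKP4-KO was -0.69 without TMM factors.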

How the results depend on the processing

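Over 103 called values of members, 160 of 1387 alternatives ended a call. Most calls ended by no filter or by only the groups compared are not named beside the results. Of the numbers of members called, 345 alternatives stayed within 1.5 times and 46 did not. Without TMM factors, Plec turned to -0.32 in PKP4-KO against WT and 0.57 in Rescue against PKP4-KO at 72 h HCM, Cd151 turned to 0.23 in Rescue against PKP4-KO at 72 h HCM and to -0.69 between 72 h and 24 h in PKP4-KO HCM, and the median of all genes moved with them. Of these, 0.57 for Plec (adjusted p = 0.00639) and -0.69 for Cd151 (0.000166) passed the test in the new direction. With the median of neighbours subtracted, Lama5 turned to 0.22 in PKP4-KO against WT at 24 h LCM.

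Numbers of members called changed as follows. With only the groups compared in the fit, they were 3 (from 5) in PKP4-KO against WT at 24 h LCM, 0 (from 1) in Rescue against WT at 72 h HCM, 3 (from 5) in HCM against LCM in WT at 24 h, and between 72 h and 24 h 1 (from 4) in WT HCM, 3 (from 1) in WT LCM, 0 (from 5) in PKP4-KO LCM and 0 (from 3) in Rescue LCM, where fewer samples share the estimate of the spread. Without TMM factors they were 1 and 2 in Rescue against WT at 24 h and 72 h LCM, and over time 3 in WT LCM, 2 in Rescue HCM and 0 in Rescue LCM. Without a filter they were 0 and 3 in Rescue against WT at 72 h HCM and 72 h LCM and 0 over time in Rescue LCM. With at least 10 counts in every library they were 2 in Rescue against WT at 72 h HCM, 3 over time in WT LCM and 1 for the medium difference at 24 h. DESeq2 gave 2 in Rescue against WT at 72 h HCM, 3 over time in WT LCM and 1 for the time difference in LCM. Without the 6 libraries there were 5 over time in WT LCM, 1 for each medium difference and 2 for the time difference in LCM. The cause was not tested.

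Leaving out single libraries gave 0 to 2 called in Rescue against WT at 72 h HCM, 3 to 5 at 72 h LCM, 3 to 5 for HCM against LCM in WT at 24 h, over time 1 to 2 in WT LCM, 1 to 5 in PKP4-KO LCM, 2 to 3 in Rescue HCM and 1 to 3 in Rescue LCM, and 0 to 1 and 0 to 2 for the medium difference at 24 h and the time difference in LCM. The replicate block took HCM against LCM in PKP4-KO at 72 h from 6 to 5 called (Plec, adjusted p = 0.0536) and changed no other number of called members by over 1.5 times. Correlations of same-numbered libraries ran from -0.806 to 0.791. Depth limits low counts only, since each member had far more than 3 counts per library.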
